A study of Mus musculus with 6 samples.

Results

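The 33 genes described here encode the proteins that bring pyruvate into the mitochondrion, turn it into acetyl-CoA or oxaloacetate, run the tricarboxylic acid (TCA) cycle, carry reducing power by the malate-aspartate shuttle and feed glutamine carbon into the cycle. They were chosen by gene symbol from these steps with earlier results of these data known, so they are not a blind sample of the pathway. Other genes of the same steps, such as those of succinate dehydrogenase, are in a further list described below. All 33 symbols were found among the 18046 genes listed for each library. RNA sequencing measured their expression in splenic CD4+ T cells of C57BL/6 mice (3 weeks of age in the labels). The cells of both groups started as naive cells and were stimulated for 3 days through CD3 and CD28 in a medium that drives T helper 1 (Th1) differentiation. One group received a vehicle that the labels do not name (n = 3 libraries) and the other 20 µM LPC, an abbreviation that the labels do not spell out (n = 3 libraries). The labels give no genetic change. Whether the libraries of a group stem from different mice or culture wells is not said. Each p-value sets a difference between groups against the spread of these libraries, and that spread may be only technical variation. By its title the study concerns the action of LPC on Th1 differentiation, and the comparison below covers the central carbon metabolism of these cells.

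In the cell, pyruvate made by glycolysis either becomes lactate or enters the mitochondrion through a carrier made of MPC1 and MPC2. There the pyruvate dehydrogenase complex converts it to acetyl-CoA, pyruvate carboxylase converts it to oxaloacetate, and citrate synthase joins the products to start the cycle. Activated T cells raise glycolysis and glutamine use together, and in them the cycle supplies citrate for lipid synthesis and acetyl groups for histones as well as reducing power for respiration.

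Levels are in FPKM, a measure scaled by transcript length and by the number of fragments in the library, so that genes of different length can be set side by side. The FPKM sums of the libraries ranged from 556561 to 641026, and the depth estimated from the spacing of low values was 19.00 to 19.50 M reads per library. All 6 tested T cell markers (Cd3e, Cd3d, Cd3g, Cd4, Cd28 and Lck) were expressed, with summed levels of 984 to 1016 FPKM with vehicle and 950 to 1023 with LPC. Cd4 itself was listed at 185, 205 and 199 FPKM with vehicle and at 177, 170 and 144 with LPC, without overlap (log2 difference -0.27, interval -0.48 to -0.06, limma adjusted p = 0.0875), a size near that of Pdha1 and Dld below; its part in the results was not tested. Markers of B cells (5), myeloid cells (5), dendritic cells (4), natural killer cells (3), red cells (3) and neutrophils (2) summed to at most 1.05 FPKM in any library, and Ncr1 and Klra8 were listed at 0 in every library. The B cell sum was 1.01 to 1.05 FPKM with vehicle and 0.52 to 0.89 with LPC, and the myeloid sum 0.05 to 0.19 and 0.33 to 0.43; their part in the results was not tested. The 4 Th1 markers (Tbx21, Ifng, Cxcr3, Il12rb2) were expressed, with sums of 1498 to 1644 and 1491 to 1637 FPKM. Of the CD8 T cell markers, Cd8a stayed under 1 FPKM while Cd8b1 had means of 13.8 FPKM (vehicle) and 11.7 FPKM (LPC). LPC replicate 3 stood apart from the other libraries: its FPKM sum was the highest, and for the 1002 genes of greatest transcript length the median deviation from the vehicle mean was -0.33 on the log2 scale, against -0.09 and -0.01 in LPC replicates 1 and 2. Differences of the 33 genes of at least 0.1 that moved by over 1.5 times without this library are given with both values.

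None of the 33 genes passed the test between LPC and vehicle (limma on log2(FPKM + 1), adjusted p under 0.05 over 10138 genes). Of all genes tested, 13.7% passed, 5.82% higher and 7.91% lower with LPC. At an unadjusted p under 0.05 there were 5 of the 33, against 30.1% of all genes tested: Pcx and Aco1 were listed higher, and Pdha1, Dld and Pdk2 lower. The log2 differences of the 33 genes ranged from -0.28 (Pdk2) to 0.33 (Pcx), with a median of -0.02 and a median absolute size of 0.07. The same values over all genes tested were -0.04 and 0.15, while the median standard error was alike (0.10 for both). The sign of the median of the 33 genes turned with median centring of the libraries (0.03) and without LPC replicate 1 (0.02).

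The intervals give a range for the difference of each gene, given the spread of these libraries and the scaling of the main fit. They hold gene by gene, not for the 33 together, and estimates of single genes moved with the processing. For 31 of the 33 the 95% interval of the log2 difference lay within 0.5 of 0, and for all 33 it lay within 1. Over all genes tested the shares were 77.3% and 99.2%. These bounds are 1.41-fold and 2-fold in FPKM + 1, while the labels name a 2-fold limit. For low genes they allow a larger change in FPKM itself: Pcx had a log2 difference of 0.33 and a mean 1.37-fold that of vehicle. Pcx (interval 0.10 to 0.56) and Pdk2 (-0.55 to -0.02) were the 2 exceptions to the narrower bound. The ranges of the groups were separate for 9 of the 33 genes, 3 higher (Pcx, Aco1, Mdh2) and 6 lower (Pdha1, Dld, Pdp1, Idh2, Got1, Glud1). Groups did not overlap for 34.5% of all genes tested, so 9 of 33 is near the background. Together the 33 genes took 0.324% to 0.335% of the FPKM sum in the vehicle libraries and 0.307%, 0.336% and 0.287% with LPC. As in any bulk sample, fewer cells expressing a gene and less RNA per cell cannot be told apart.

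**Figure D1:**
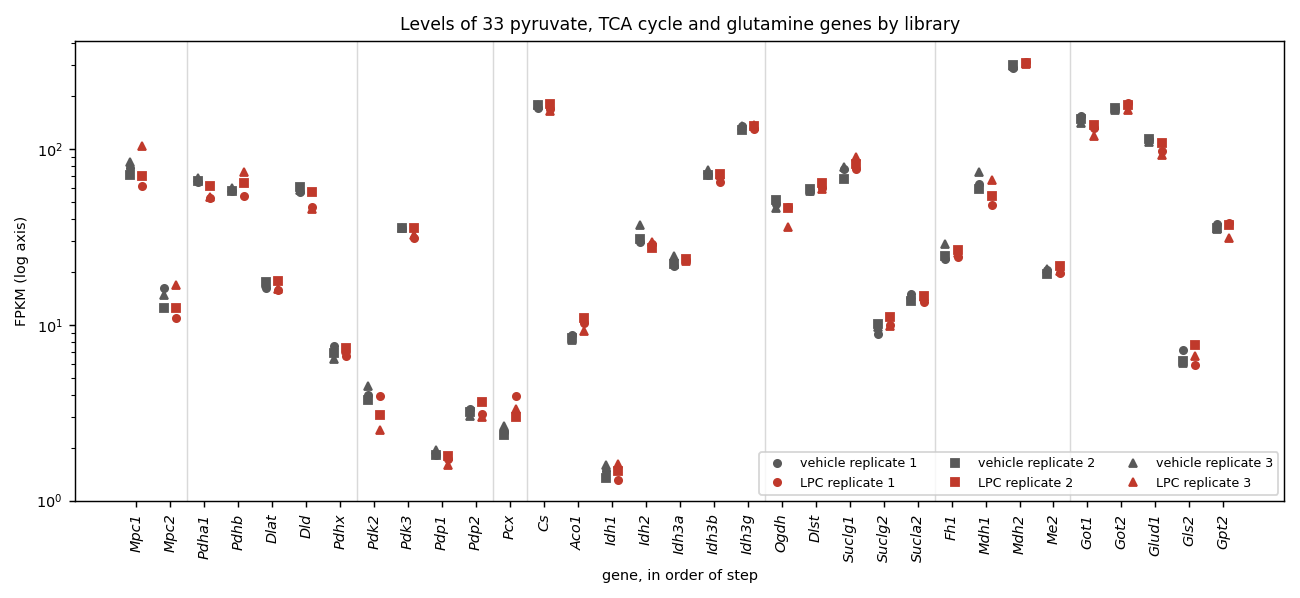
FPKM (log axis) of the 33 genes in each of the 6 libraries, grey for vehicle and red for LPC, with a symbol for each replicate number and vertical lines between steps. Levels span from about 1.47 FPKM (Idh1) to 296 FPKM (Mdh2, vehicle means), and for most genes the red and grey points share a range.

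**Figure D2:**
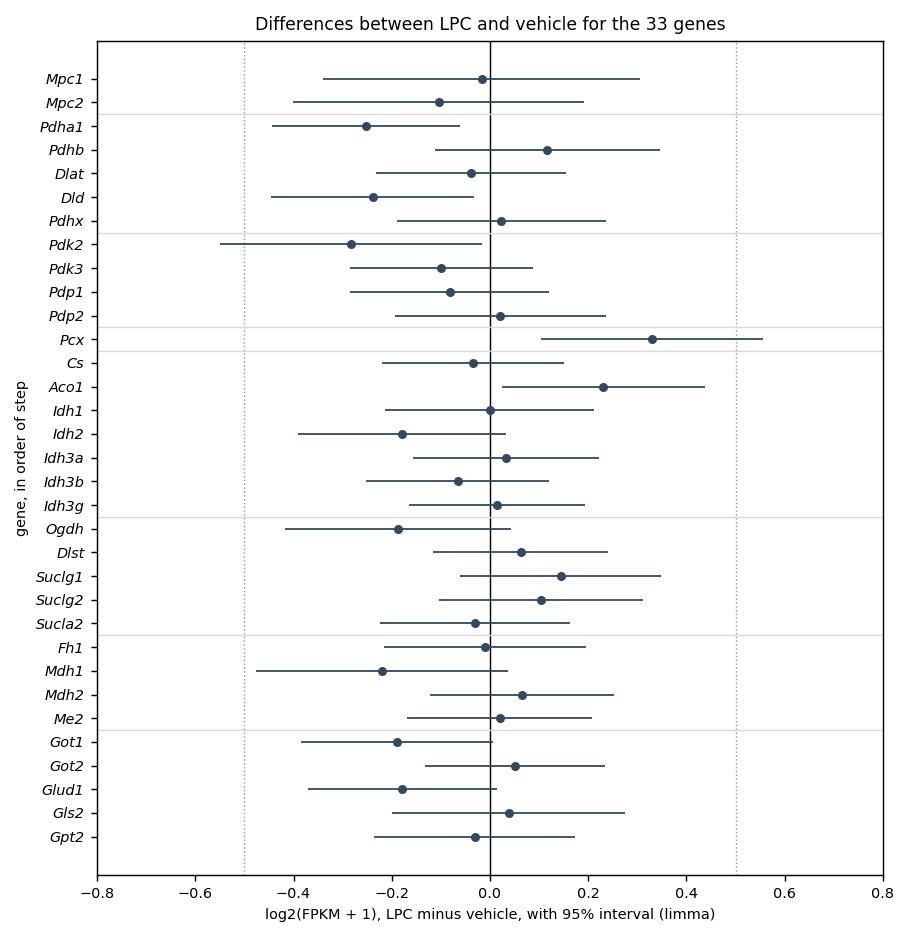
Difference of log2(FPKM + 1), LPC minus vehicle, with its 95% interval from limma for each of the 33 genes (3 libraries per group). Dotted lines mark 0.5 on each side of 0; the intervals of Pcx and Pdk2 cross them.

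The 5 highest genes were Mdh2, Cs, Got2, Got1 and Idh3g, and the same 5 genes were the highest in the LPC group, where the means of Cs and Got2 and those of Got1 and Idh3g changed places. Mdh2, the mitochondrial malate dehydrogenase that closes the cycle, was listed at 289, 301 and 298 FPKM in the vehicle libraries (replicates 1, 2 and 3, as in every series of values here) and at 314, 309 and 305 in the LPC libraries. Every LPC library was above every vehicle library, yet the log2 difference was 0.07 (interval -0.12 to 0.25, limma adjusted p = 0.65). Cs, citrate synthase, was listed at 171, 178 and 177 FPKM in the vehicle group and 169, 181 and 164 with LPC. Idh3g, a regulatory subunit of the NAD-dependent isocitrate dehydrogenase, was listed at 135, 129 and 135 FPKM in the vehicle group and 130, 135 and 137 with LPC. For Cs and Idh3g the groups overlapped, and the intervals of their log2 differences (-0.22 to 0.15 and -0.17 to 0.19) lay within 0.22 of 0. The lowest of the 33 was Idh1, the cytosolic NADP-dependent isocitrate dehydrogenase, at 1.31 to 1.61 FPKM over the 6 libraries.

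The mitochondrial pyruvate carrier is a pair of small inner membrane proteins. Mpc1 was listed at 78.2, 71.4 and 84.3 FPKM with vehicle and at 61.8, 70.3 and 104 FPKM with LPC. Mpc2 was listed at 16.1, 12.4 and 14.7 FPKM with vehicle and at 11, 12.5 and 16.9 with LPC. For each of the pair LPC replicate 1 was the lowest of the 6 libraries and LPC replicate 3 the highest. The SD of Mpc1 in the LPC group was 22.6 FPKM, against 6.47 with vehicle, and its standard error on the log2 scale (0.15) was the widest of the 33 genes. The log2 difference was -0.02 for Mpc1 (interval -0.34 to 0.31, limma adjusted p = 0.955) and -0.10 for Mpc2 (-0.40 to 0.19, adjusted p = 0.646). Without LPC replicate 3 these became -0.24 and -0.27, and without LPC replicate 1 they became 0.14 and 0.02; neither passed in any of the 13 alternatives tried.

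The pyruvate dehydrogenase complex joins a decarboxylase (alpha subunit Pdha1, beta subunit Pdhb), an acetyltransferase core (Dlat), a dihydrolipoyl dehydrogenase (Dld) and a binding protein that anchors the dehydrogenase (Pdhx). Pdha1 was listed at 65.1, 65.9 and 68.2 FPKM with vehicle and at 52.5, 61.4 and 53.4 with LPC. Dld, which also serves the 2-oxoglutarate dehydrogenase complex, was listed at 57.0, 60.7 and 58.6 FPKM with vehicle and at 47.0, 56.7 and 45.8 with LPC. For each gene the 3 LPC libraries lay under the 3 vehicle libraries, with LPC replicate 2 close to the vehicle range. The log2 difference of Pdha1 was -0.25 (SE 0.09, interval -0.44 to -0.06, limma adjusted p = 0.0764), and that of Dld -0.24 (SE 0.10, interval -0.45 to -0.03, adjusted p = 0.114). Without LPC replicate 2, Pdha1 passed with a log2 difference of -0.32 (adjusted p = 0.0233) and Dld with -0.33 (adjusted p = 0.0217). Without LPC replicate 3 the differences were -0.22 and -0.18 and did not pass.

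The other subunits had smaller differences. Pdhb, the partner of Pdha1 in the decarboxylase, was listed at 58.6 ± 1.57 FPKM in the vehicle group and 64.1 ± 9.90 with LPC (SD, n = 3 each), a log2 difference of 0.12 (interval -0.11 to 0.35) that was 0.01 without LPC replicate 3. Dlat was listed at 17.0 ± 0.626 and 16.5 ± 1.02 FPKM, and Pdhx at 6.94 ± 0.590 and 7.06 ± 0.408 FPKM. In transcript level the core and the binding protein were thus the scarcest parts of the complex in both groups, and Pdha1, Pdhb and Dld lay near one another. Whether the subunits differed in their response was not tested.

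Pyruvate dehydrogenase is switched off by kinases and switched on by phosphatases. Among the kinase genes Pdk3 was the highest, at 35.5 ± 0.123 FPKM with vehicle and 33.2 ± 2.37 with LPC (SD, n = 3 each). Pdk2 was listed at 3.99, 3.72 and 4.47 FPKM with vehicle and at 3.96, 3.09 and 2.53 with LPC. LPC replicate 1 was inside the vehicle range, and replicates 2 and 3 were under it. Its log2 difference of -0.28 (SE 0.12, interval -0.55 to -0.02, limma adjusted p = 0.146) passed once each library's trend with transcript GC share and length was removed (-0.35, adjusted p = 0.036). It was -0.17 without LPC replicate 3. Pdk1, a kinase gene outside the 33 that is induced by hypoxia-inducible factor, was listed at 13.6, 14.1 and 15.7 FPKM with vehicle and at 12.5, 11.7 and 11.2 with LPC, with no overlap (log2 difference -0.27, interval -0.48 to -0.07, adjusted p = 0.0712). Pdk4 was at or under 0.02 FPKM in each library. The phosphatase genes were low: Pdp1 was listed at 1.86 ± 0.0700 and 1.70 ± 0.106 FPKM and Pdp2 at 3.18 ± 0.142 and 3.25 ± 0.342.

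Pyruvate carboxylase adds carbon dioxide to pyruvate to refill oxaloacetate. Its gene, Pcx (chromosome 19, 4510472 to 4621752 of GRCm38), had the largest difference among the 33. Pcx was listed at 2.47, 2.36 and 2.66 FPKM with vehicle and at 3.92, 3.00 and 3.31 with LPC. Every LPC library was above every vehicle library. The mean was 1.37-fold that of vehicle, but the gene did not pass (log2 difference 0.33, SE 0.11, interval 0.10 to 0.56, limma adjusted p = 0.0522). It passed in 5 of 12 alternatives, with quantile normalization (0.41, adjusted p = 0.0242), median centring (0.38, 0.0454) and removal of GC and length trends (0.30, 0.0233) among them, and also without LPC replicate 2 (0.40, 0.0276). Its level is low: at the estimated depth the vehicle mean stands for about 198 reads per library, a counting error of about 7.1%, against about 9925 reads and 1.0% for Cs.

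The 250 bases before the first RefSeq start of Pcx (GRCm38.p6, chr19:4510222-4510471, plus strand) are shown because this gene lay nearest to the threshold. Capitals mark matches to the motifs listed further on, here 1 match to the E-box CACGTG, 3 matches to CCAAT and 1 to the GC box GGGCGG.
Pcx: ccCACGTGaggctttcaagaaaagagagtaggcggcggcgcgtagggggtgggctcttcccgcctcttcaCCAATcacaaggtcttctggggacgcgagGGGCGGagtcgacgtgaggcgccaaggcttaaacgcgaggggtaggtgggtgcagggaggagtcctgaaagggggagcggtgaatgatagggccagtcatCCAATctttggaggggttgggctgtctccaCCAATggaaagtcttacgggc

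Citrate is turned into isocitrate by aconitase and then oxidised to 2-oxoglutarate. Aco1, the cytosolic aconitase that doubles as an iron-sensing RNA-binding protein, was listed at 8.80, 8.40 and 8.25 FPKM with vehicle and at 10.3, 10.9 and 9.27 with LPC. All LPC libraries were above all vehicle libraries (log2 difference 0.23, SE 0.10, interval 0.02 to 0.44, limma adjusted p = 0.125). Aco1 passed with quantile normalization (0.30, adjusted p = 0.0299), median centring (0.28, 0.0396) and removal of GC and length trends (0.25, 0.0216).

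The isocitrate dehydrogenase genes spanned a wide range of levels. The catalytic subunit Idh3a was listed at 22.8 ± 1.57 FPKM in the vehicle group and 23.3 ± 0.406 with LPC (SD, n = 3 each), under its regulatory partners Idh3b (72.7 ± 3.07 and 69.5 ± 3.98) and Idh3g. Idh2, the mitochondrial NADP-dependent enzyme, was listed at 29.6, 31.0 and 37.1 FPKM with vehicle and at 28.8, 27.3 and 29.5 with LPC. Its highest LPC library (29.45) lay just under its lowest vehicle library (29.55), and vehicle replicate 3 was well above the rest. The log2 difference of -0.18 (interval -0.39 to 0.03, limma adjusted p = 0.239) was -0.08 without vehicle replicate 3, and with the GC and length trends removed the gene passed (-0.25, adjusted p = 0.0399).

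The step from 2-oxoglutarate to succinate held 5 of the 33 genes, with no unadjusted p under 0.05. Ogdh, the decarboxylase of the 2-oxoglutarate dehydrogenase complex, was listed at 48.5, 51.6 and 46.3 FPKM with vehicle and at 46.9, 46.2 and 35.8 with LPC. Replicates 1 and 2 of LPC lay near the lowest vehicle library and replicate 3 under all the others: the log2 difference of -0.19 (interval -0.42 to 0.04, limma adjusted p = 0.257) became -0.06 without LPC replicate 3. Dlst, the succinyltransferase of the same complex, was listed at 58.3 ± 0.891 and 61.0 ± 2.66 FPKM (SD, n = 3 each). Succinyl-CoA synthetase pairs the alpha subunit Suclg1 with a GTP-forming (Suclg2) or an ATP-forming (Sucla2) beta subunit. Suclg1 was listed at 74.9 ± 6.14 and 82.9 ± 6.52 FPKM, with a log2 difference of 0.14 that was 0.09 without LPC replicate 3. Suclg2 was listed at 9.53 ± 0.636 and 10.3 ± 0.700, and Sucla2 at 14.4 ± 0.678 and 14.1 ± 0.567. The alpha subunit was thus the most abundant of the 3 in both groups.

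Fh1, fumarase, was listed at 25.8 ± 2.75 FPKM in the vehicle group and 25.5 ± 1.17 with LPC (SD, n = 3 each), a log2 difference of -0.01 (interval -0.22 to 0.20). Me2, a mitochondrial malic enzyme that turns malate back into pyruvate, was listed at 20.2 ± 0.786 and 20.5 ± 0.943 FPKM (0.02, interval -0.17 to 0.21). Mdh1, the cytosolic malate dehydrogenase of the malate-aspartate shuttle, was listed at 63.3, 59.5 and 73.7 FPKM with vehicle and at 48.1, 54.1 and 66.9 with LPC. The groups overlapped through LPC replicate 3 alone (log2 difference -0.22, interval -0.48 to 0.04, limma adjusted p = 0.231). Without that library Mdh1 passed with a log2 difference of -0.35 (adjusted p = 0.0371), but the difference was -0.11 without LPC replicate 1 (adjusted p = 0.572) and -0.13 without vehicle replicate 3 (adjusted p = 0.541).

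The shuttle also needs the aspartate transaminases, which exchange amino groups between glutamate and oxaloacetate. Got1, the cytosolic form, was listed at 155, 147 and 141 FPKM with vehicle and at 132, 138 and 119 with LPC, each LPC library under each vehicle library. Got2, the mitochondrial form, was listed at 170, 172 and 167 FPKM with vehicle and at 183, 178 and 167 with LPC. The log2 difference was -0.19 for Got1 (SE 0.09, interval -0.38 to 0.01, limma adjusted p = 0.179) and 0.05 for Got2 (SE 0.09, interval -0.13 to 0.23, adjusted p = 0.728). The carriers of the shuttle, outside the 33, did not pass: Slc25a11 had a log2 difference of 0.09, Slc25a12 of -0.12 and Slc25a13 of 0.10.

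Glutamine enters the cycle through glutaminase and then through glutamate dehydrogenase or a transaminase. Glud1, glutamate dehydrogenase, was listed at 114, 114 and 110 FPKM with vehicle and at 97.7, 109 and 92.4 with LPC. All LPC libraries lay under all vehicle libraries, with LPC replicate 2 next to them (log2 difference -0.18, interval -0.37 to 0.01, limma adjusted p = 0.198). Gls2, the liver-type glutaminase and a known p53 target, was listed at 7.22, 6.24 and 6.08 FPKM with vehicle and at 5.89, 7.66 and 6.64 with LPC, with full overlap (0.04, interval -0.20 to 0.27, adjusted p = 0.851). Gpt2, the mitochondrial alanine transaminase, was listed at 36.1 ± 1.25 and 35.4 ± 3.73 FPKM (SD, n = 3 each; log2 difference -0.03).

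The share of a gene within a pair does not depend on a library's scaling factor, and 8 pairs were compared, of which 7 are described. It can still depend on a library's trend with transcript length and GC share, and shares with that trend removed were not computed. Got1 made up 47.7%, 46.2% and 45.7% of the summed FPKM of Got1 and Got2 in vehicle replicates 1 to 3 and 41.9%, 43.6% and 41.6% with LPC. All LPC libraries were under all vehicle libraries, and the difference of -4.13 percentage points exceeded the SDs of 1.01 and 1.10 points. The share of Pdp1 in Pdp1 and Pdp2 also did not overlap, at 36.9% ± 1.86 with vehicle and 34.4% ± 1.21 with LPC (SD, n = 3 each). For these 2 pairs the two-sided exact permutation p was 0.1, the smallest that 3 against 3 allows, and 0.4 after Benjamini-Hochberg adjustment over the 8 pairs, so neither passed. Without vehicle replicate 3 the Pdp1 difference was -1.41 points, against -2.47 with all libraries.

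The other 5 of these pairs overlapped between groups (adjusted exact permutation p from 0.4 to 0.6). The cytosolic form made up 18.1% ± 1.68 of Mdh1 and Mdh2 with vehicle and 15.4% ± 2.39 with LPC, and 4.33% ± 0.353 and 4.89% ± 0.472 of Idh1 and Idh2 (SD, n = 3 each). Suclg2 made up 39.8% ± 2.64 and 42.2% ± 1.34 of the beta subunits of succinyl-CoA synthetase. Pdk2 made up 10.2% ± 0.891 and 8.81% ± 2.16 of Pdk2 and Pdk3, and Mpc1 84.4% ± 1.30 and 85.3% ± 0.666 of the carrier pair. The steady Mpc1 share sits beside the wide spread of Mpc1 itself, since Mpc2 was low and high in the same LPC libraries.

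**Figure D3:**
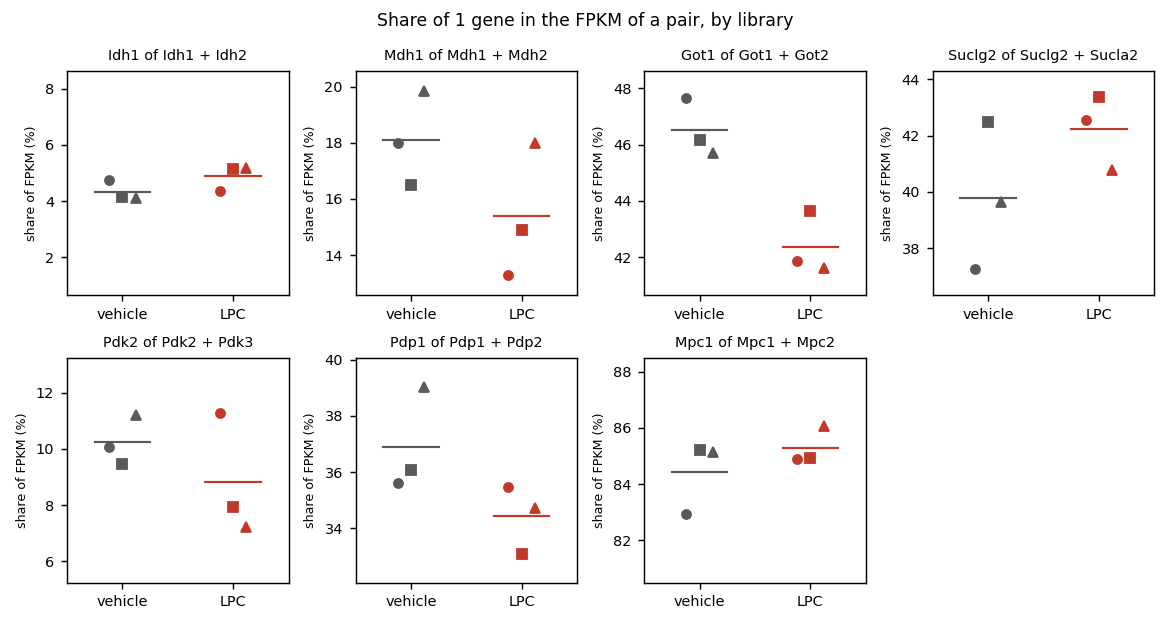
Share (%) of the first gene in the summed FPKM of 7 pairs in each library, grey for vehicle and red for LPC, with a symbol for each replicate number and a line at the mean of 3 libraries (vertical axes do not start at 0). The Got1 share was 45.7% to 47.7% with vehicle and 41.6% to 43.6% with LPC.

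The 250 bases before the RefSeq starts of Got1 (GRCm38.p6, chr19:43524606-43524855, minus strand) and Got2 (chr8:95888402-95888651, minus strand) are printed because the shares of this pair did not overlap between groups. Capitals mark motif matches, in Got1 5 matches to CCAAT or its reverse complement and in Got2 the reverse complement of TATAAA.
Got1: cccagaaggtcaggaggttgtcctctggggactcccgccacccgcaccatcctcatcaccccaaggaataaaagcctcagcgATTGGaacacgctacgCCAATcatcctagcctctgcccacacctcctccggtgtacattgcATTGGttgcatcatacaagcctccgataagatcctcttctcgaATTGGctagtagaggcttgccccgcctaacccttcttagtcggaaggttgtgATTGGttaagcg
Got2: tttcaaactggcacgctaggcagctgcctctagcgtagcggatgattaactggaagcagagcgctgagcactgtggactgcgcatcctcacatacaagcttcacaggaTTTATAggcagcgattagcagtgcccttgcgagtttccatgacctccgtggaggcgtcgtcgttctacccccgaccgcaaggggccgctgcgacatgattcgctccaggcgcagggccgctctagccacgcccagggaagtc

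As a description of what the 33 genes share in sequence, 7 short motifs were counted on both strands in the 250 bases before each start in the RefSeq table of GRCm38.p6, overlaps between motifs allowed; 29 of the 33 genes and 14150 of all listed genes had an entry, and a gene counted once whatever its number of starts. Pdp1, Idh3a, Me2 and Gls2 were not matched. The 14150 genes include genes that did not reach the expression filter, which all 33 genes passed, and no comparison with expressed genes alone was made. CCAAT was present for 17 of the 29 genes (58.6%), against 40% of all genes, and the GC box GGGCGG for 21 (72.4%), against 54.2%. TATAAA was present for 1, Got2, against 10.2% of all genes. The E-box CACGTG was found for Pdk2, Pdp2, Pcx and Ogdh (13.8%, against 8.6%), and TGACGTCA for Ogdh and Mdh2 (6.9%, against 2.6%). The NRF1 palindrome and the ERR site TCAAGGTCA matched in 0 of the 29, against 1.5% and 0.4% of all genes. The windows were also richer in GC, with a median of 61.6% against 58.0%.

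The libraries of the LPC group did not deviate alike. Relative to the vehicle mean, 24 of the 33 genes were lower in LPC replicate 1, 12 in LPC replicate 2 and 18 in LPC replicate 3. Across the 33 genes the deviation correlated with log2 transcript length at r = 0.425 in LPC replicate 1, 0.393 in replicate 2 and -0.423 in replicate 3; these are descriptions across genes that share a library and are not independent. Over 10018 of the genes tested, those with a length, the same r was -0.156, 0.027 and -0.523. In LPC replicate 3 the transcripts of Mpc1 and Pdhb (958 and 1513 bases) were high and that of Ogdh (4110 bases) was low, while in LPC replicate 1 those of Mpc1, Mpc2 and Mdh1 (958, 1025 and 2122 bases) were low. Other genes did not follow length: in LPC replicate 3 Pcx (4096 bases) was high (0.30), and the lowest was Pdk2 (2246 bases, -0.52). The part of transcript length in these deviations was not tested beyond the fit that removes its trend: in that fit 2 of the 33 genes passed as higher (Pcx, Aco1) and 3 as lower (Pdha1, Pdk2, Idh2), beside 22.5% of all genes tested.

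**Figure D4:**
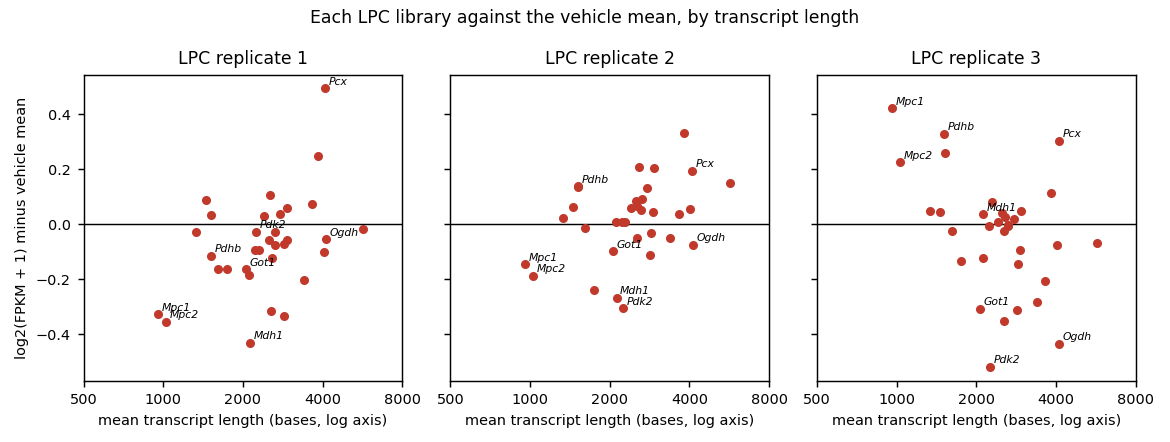
Deviation of each of the 33 genes from the vehicle mean on the log2(FPKM + 1) scale in LPC replicates 1, 2 and 3, against mean transcript length in bases (log axis); 8 genes are named. The slope is downward in LPC replicate 3 (r = -0.423) and upward in replicates 1 and 2 (r = 0.425 and 0.393).

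A further list of 44 genes around the same steps (succinate dehydrogenase, carriers, lactate and acetate enzymes, glutamine uptake, lipoylation) had 35 tested members, of which 1 rose and 4 fell with LPC, 5 of 35 beside 13.7% of all genes tested. Slc16a3, the lactate exporter, was listed at 27.4, 28.4 and 26.0 FPKM with vehicle and at 54.6, 36.9 and 48.8 with LPC, and rose by a log2 difference of 0.74 (SE 0.12, limma adjusted p = 0.00248). Ldha, which turns pyruvate into lactate, was listed at 1145, 989 and 1093 FPKM with vehicle and at 1272, 1312 and 1456 with LPC, without overlap, and did not pass (0.32, interval 0.09 to 0.56, adjusted p = 0.0675). Acss2, the cytosolic and nuclear form of the enzyme that activates acetate, fell from 5.51, 5.20 and 5.43 FPKM to 3.98, 3.92 and 4.31 (-0.33, SE 0.09, adjusted p = 0.0339). Acss1, the mitochondrial form, went from 1.14, 1.37 and 1.09 FPKM to 0.66, 0.50 and 0.45 (-0.52, SE 0.10, adjusted p = 0.00673). Acss1 entered the test through its vehicle libraries alone, since each LPC library was under the limit of 1 FPKM, so it had to differ to be tested, and its call is no support; without it 3 genes fell.

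Slc25a1, the carrier that exports citrate from the mitochondrion, fell from 68.2, 68.2 and 85.2 FPKM to 64.5, 49.9 and 55.9 (log2 difference -0.37, SE 0.11, limma adjusted p = 0.0432). Acly, which splits that citrate in the cytosol, was listed at 42.5, 43.6 and 43.4 FPKM with vehicle and at 54.2, 54.4 and 47.2 with LPC and did not pass (0.26, interval 0.07 to 0.45, adjusted p = 0.0669). Sdhaf2, an assembly factor that helps attach flavin to succinate dehydrogenase, fell from 18.6, 19.0 and 18.7 FPKM to 13.8, 16.5 and 14.1 (-0.33, SE 0.09, adjusted p = 0.0345). The subunits of that enzyme did not pass, with log2 differences of -0.07 (Sdha), 0.17 (Sdhb), 0.14 (Sdhc) and -0.02 (Sdhd). Slc1a5, a glutamine importer, had 0.17 (limma adjusted p = 0.231). Slc38a1 and Slc38a2, listed for glutamine uptake as well, had the other sign, -0.21 (limma adjusted p = 0.202) and -0.13 (0.469). Slc16a3 passed in each of the 13 alternatives tried.

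The other 3 calls lay near the threshold. Across removals of single libraries the log2 difference stayed between -0.41 and -0.29 for Sdhaf2, between -0.37 and -0.31 for Acss2 and between -0.47 and -0.27 for Slc25a1, while the adjusted p crossed the threshold. Removing any 1 vehicle library ended each of the 3 calls, and in those fits 513 to 951 of all genes passed, against 1392 with 6 libraries. The call of Slc25a1 was lost on removal of vehicle replicate 1 (limma adjusted p = 0.0798), 2 (0.0548) or 3 (0.157) or of LPC replicate 2 (0.102) or 3 (0.0594). For Acss2 the p became 0.14, 0.0998 and 0.0897 when vehicle replicates 1, 2 and 3 in turn were removed, and 0.0941 when LPC replicate 1 was. For Sdhaf2 the same 3 removals gave 0.12, 0.127 and 0.0811, and those of LPC replicates 1 and 3 gave 0.11 and 0.0548. Slc25a1 and Acss2 were also lost with quantile normalization (0.0517 and 0.08) and median centring (0.126 and 0.0592), and all 3 with no filter on low values (0.145, 0.0841 and 0.0766 for Slc25a1, Acss2 and Sdhaf2).

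**Figure D5:**
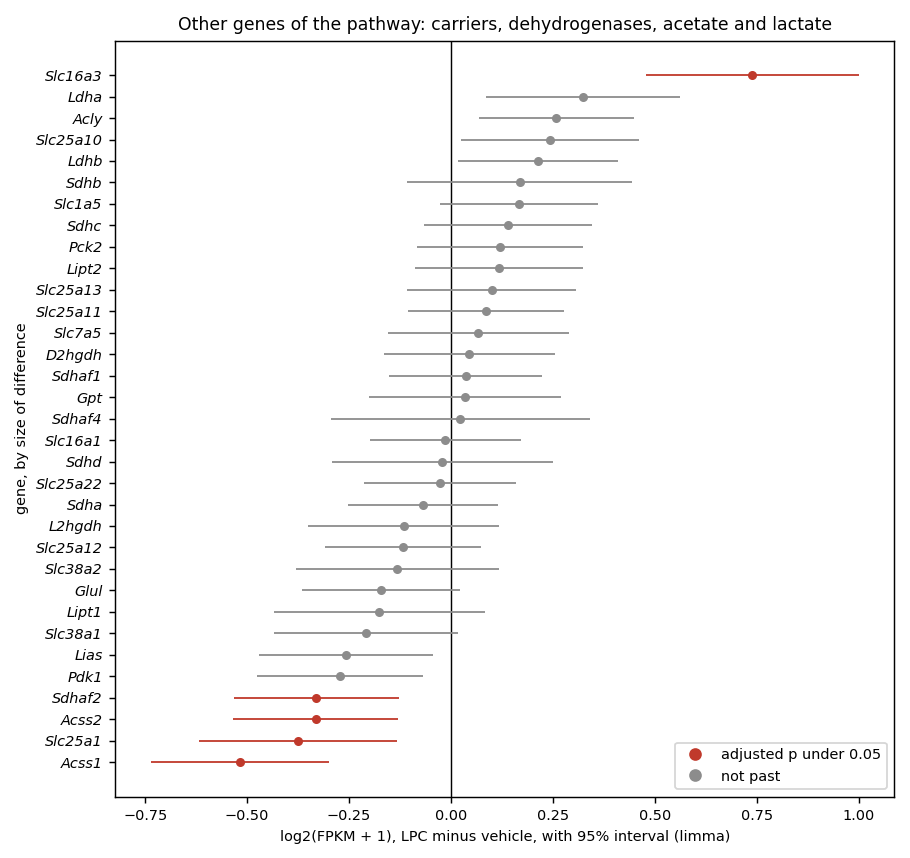
Difference of log2(FPKM + 1), LPC minus vehicle, with its 95% interval from limma for 33 of the 35 tested genes of the further list, ordered by size; red marks an adjusted p under 0.05. Slc16a3 (0.74) lies farthest to the right and Acss1 (-0.52) farthest to the left.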

How the data were processed

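RNA of 6 libraries (3 vehicle, 3 LPC) was sequenced on a BGISEQ-500, with alignment by Bowtie2 (GRCm38) and quantification by RSEM, per the labels' protocols, which give no versions. The authors deposited FPKM per gene, rounded to hundredths, 1 file per library. RSEM splits reads shared by similar genes by estimate, and FPKM is relative to each library's total. Depth was estimated from single-transcript genes between 0.03 and 0.3 FPKM, as the read number that made their values closest to whole reads (mean distance 0.180 to 0.185 of a read, against at least 0.229 after shuffling gene lengths).

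Gene identifiers were matched to the RefSeq table of GRCm38.p6 (17918, 99.3%), and 24 symbols turned into dates were restored. Groups were compared by limma (version 3.58.1, with R 4.3.3; prior variance trended on mean level, no covariate) on log2(FPKM + 1). Genes needed at least 1 FPKM in at least 3 libraries, which left 10138, and p-values were adjusted over these by Benjamini-Hochberg; all 33 genes passed this filter. The limma fit was tested on simulated data, where it recovered 78% of genes changed 1.5-fold in FPKM + 1 and 96% of those changed 2-fold. Of 179 calls there 5 were false. The simulated noise was drawn independently for each gene, while the real libraries share trends across genes, such as that with transcript length. These rates may therefore not hold for the real data. Smaller changes, such as those listed for the 33 genes, were not simulated. No count test was run. Differences are on this log2 scale, LPC minus vehicle, and understate changes of low genes. The alternatives were quantile normalization, median centring, no filter (genes at 0 throughout left out), a minimum mean of 5 FPKM, 0.1 as pseudocount, a replicate block, removal of single libraries, and removal of each library's trend with transcript GC share and length (natural splines, 4 degrees of freedom, lengths from GENCODE M21). Gene lists and members were chosen with earlier results of these data known. The naming rule took the 33 genes by role, with per-library values for the 5 highest, Gls2 and any that passed, and of the further list those that passed plus Pdk1 and 2 genes not reported here; per-library values of other genes were added after their values were seen. Of 45 symbols on the further list 44 were found. Library totals of the marker lists and shares of pairs (exact permutation tests) were computed from FPKM.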

Additional observations from a re-analysis of the deposited data

How the results depend on the processing

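Among the 33 genes, 2 were higher with quantile normalization, median centring, the replicate block and removal of GC and length trends, and 3 were lower with the replicate block and with removal of GC and length trends, in place of 0. Of all genes tested, 12.5%, 12%, 28% and 22.5% passed in these fits, in the order first named and in either direction. Leaving out each library in turn gave 0 to 1 higher and 0 to 2 lower, while 5.06% to 20% of all genes tested passed. The median log2 difference of the 33 was 0.031 with median centring and -0.047 to 0.023 across left-out libraries. In the further list, genes higher numbered 2 with median centring, 3 with the replicate block, 4 with removal of GC and length trends and 1 to 2 across left-out libraries; genes lower numbered 2 with quantile normalization, median centring or a mean FPKM of 5 or more, 1 with no filter, 7 with the replicate block and 1 to 4 across left-out libraries. Of all genes tested, 236 were higher and 228 lower with no filter, 1180 and 1661 with the replicate block, 911 and 1346 with removal of GC and length trends, and 225 to 809 and 288 to 1217 across left-out libraries. The cause of these moves was not tested; fits without 1 library have fewer samples. The share of calls that were higher was 42.4%, 53.1% with median centring and 51.1% with quantile normalization. No single gene named turned its sign at a call under any alternative.

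The replicate numbers were not taken as pairs. Deviations from group means of same-numbered libraries correlated at 0.02, 0.56 and 0.41 (numbers 1 to 3), and vehicle replicate 1 correlated best with LPC replicate 3 (0.07). Vehicle replicate 2 correlated with LPC replicate 3 at -0.50, and vehicle replicate 3 with LPC replicate 2 at -0.45. Whether replicates 2 and 3 are paired across the groups was not tested. With the replicate block Pdha1, Dld, Pcx, Aco1 and Mdh1 passed. In that fit 2841 of the 10138 genes tested passed (28%), a larger share than among the genes described here. Shares of pairs kept their sign without each library in turn and as log2 ratios, and moved by less than the spread between replicates, but several moved by over 1.5 times: the difference in points went from 0.87 to 0.12 for Mpc1 and from 2.45 to 1.17 for Suclg2 without vehicle replicate 1, from -1.44 to -2.67 for Pdk2 without LPC replicate 1 and to -0.64 without LPC replicate 3, from -2.47 to -1.41 for Pdp1 without vehicle replicate 3, and from -2.72 to -1.67 for Mdh1 without LPC replicate 1. Other removals moved them as well, and the Got1 difference stayed between -4.76 and -3.56. Depth limits the lowest genes: about 65 reads per vehicle library for Idh1, a counting error of about 12%.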
